A study of Mus musculus with 12 samples.

Results

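The expression of the genes for neurexins, neuroligins and leucine-rich repeat transmembrane (LRRTM) proteins was examined in the striatum of mice labelled TAAR5-KO and WT. The set was chosen by gene name and comprised 9 of the 57132 features of the count table, namely Nrxn2, Nrxn3, Nlgn1, Nlgn2, Nlgn3, Lrrtm1, Lrrtm2, Lrrtm3 and Lrrtm4. The 12 animals, 6 per genotype label, were C57Bl/6 littermates aged 10 months with no treatment named in the labels, and one group was labelled as a knockout of the gene of the trace amine-associated receptor 5 (TAAR5), a G protein-coupled receptor for volatile amines. According to the paper, each group held male and female mice. The columns of the count table do not give the sex of a library, so sex was not part of any test. Total RNA of the striatum, taken from a single coronal slice after the cortex had been cut away, was depleted of ribosomal RNA and sequenced, and each library came from 1 animal. The question was whether transcript levels of these synaptic adhesion genes differed between the genotype labels.

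Neurexins are presynaptic membrane proteins that reach across the synaptic cleft, and each neurexin gene gives long and short forms from separate promoters with many splice variants. Neuroligins and LRRTM proteins are postsynaptic and bind neurexins, together with secreted adaptors such as cerebellins. These contacts align the release site with the receptors opposite it. Neuroligin 1 is known from excitatory synapses, neuroligin 2 from inhibitory ones and neuroligin 3 from both, while LRRTM proteins are found at excitatory synapses, where they act on AMPA receptors. The striatum is built mainly of inhibitory spiny neurons that receive excitatory input from cortex and thalamus.

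The 12 libraries held 11269915 to 34824450 counts each, of which 64.29% to 88.05% fell on ribosomal RNA, so that 1819907 to 6399188 counts per library remained for all other genes. Levels are given as CPM, the count scaled to a library size that was corrected by the trimmed mean of M-values (TMM), and the TMM factors spread from 0.3748 to 2.461. A count of 0 allowed a level of up to 0.0679 to 0.362 CPM (3 counts), and the 9 genes lay far above it. The targeted gene went against the labels, since Taar5 had 1 to 6 counts in every library labelled TAAR5-KO and 0 to 2 counts in those labelled WT, so each group is named here by its label. Markers of striatal spiny neurons were present in all libraries, with a summed level of 240 to 316 CPM in those labelled TAAR5-KO and 142 to 266 CPM in those labelled WT, and 0 of 7 passed the test. Their median log2 fold change, labelled TAAR5-KO over labelled WT, was 0.32. The part of spiny neuron content in the levels of the 9 genes was not tested. Markers of cortical pyramidal neurons, from tissue that the dissection meant to remove, summed to 23.1 to 88.1 and 30.5 to 96.5 CPM with 0 of 5 called.

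All 9 genes passed the filter on low counts, and 0 of 9 passed the likelihood ratio test of edgeR between the genotype labels at an adjusted p under 0.1. Over all 13902 features tested, 229 did, or 1.65%, so 0 calls among 9 genes said little about them as a set. At an unadjusted p under 0.05 there were 3 of the 9 genes by the likelihood ratio test, 4 by the quasi-likelihood test of edgeR and 4 by DESeq2, and neither of the last 2 tools called any at an adjusted p under 0.1. Over all features, 1657 (11.9%) had an unadjusted p under 0.05 by the likelihood ratio test. The log2 fold change, given throughout as labelled TAAR5-KO over labelled WT, had a median of 0.07 over the 9 genes and of -0.01 over all features tested. In every one of the 9 genes the levels of the 2 groups overlapped, while 1.01% of all features tested had groups without overlap. The p-values measure the spread between animals, and in bulk tissue fewer cells of a type cannot be told apart from less RNA per cell.

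**Figure D1:**
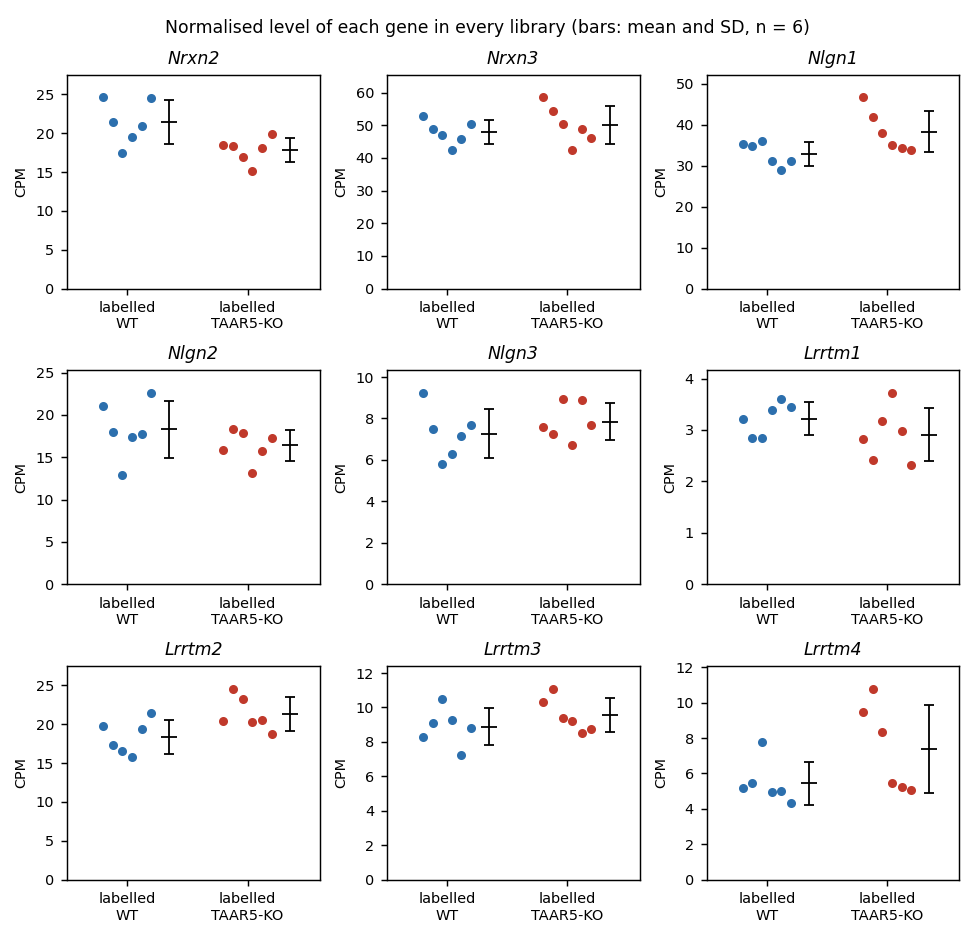
Level of each of the 9 genes in every library, in TMM-normalised CPM on axes that start at 0, with 6 points for each genotype label and a bar for the mean and SD. The 2 groups of points overlap in all 9 panels, and Lrrtm4 labelled TAAR5-KO splits into 3 libraries at 8.36 to 10.8 CPM and 3 at 5.04 to 5.46 CPM.

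The neurexins were represented by Nrxn2 (ENSMUSG00000033768.18, GRCm39 chromosome 19 from 6468761 to 6594199, plus strand, 28 exon blocks with 13812 bases) and Nrxn3 (ENSMUSG00000066392.13, chromosome 12 from 88689646 to 90301709, plus strand, 29 exon blocks with 12680 bases). Their proteins are close relatives, but their exons differ in base composition, with 58.6% G or C in Nrxn2 and 47.0% in Nrxn3. A coding stretch of 30 codons inside 1 exon is shown for both, because the pair encoded the same 30 amino acids with 76 of 90 bases in common. Capitals mark a G or C at the third base of a codon, and such bases numbered 22 in Nrxn2 (chr19:6542904-6542993, plus strand, GRCm39) and 20 in Nrxn3 (chr12:89479747-89479836, plus strand, GRCm39).
Nrxn2: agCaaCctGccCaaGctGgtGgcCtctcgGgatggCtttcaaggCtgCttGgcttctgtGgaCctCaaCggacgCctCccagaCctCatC
Nrxn3: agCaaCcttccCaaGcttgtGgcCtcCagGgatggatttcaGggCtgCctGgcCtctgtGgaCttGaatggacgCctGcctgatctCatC

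Nrxn2 had the lowest unadjusted p of the 9 genes. Its level was 15.2, 18.3 and 19.9 CPM (lowest, median, highest) in the 6 libraries labelled TAAR5-KO and 17.4, 21.2 and 24.6 CPM in the 6 labelled WT. All 6 libraries labelled TAAR5-KO lay under the WT median, and 2 of them lay under every WT library. The means were 17.9 ± 1.59 and 21.4 ± 2.81 CPM (SD, n = 6 each), and the log2 fold change was -0.28 (SE 0.101, 95% interval -0.47 to -0.08, adjusted p = 0.175 by the likelihood ratio test). Without NK9, the library labelled WT with the lowest level, the value was -0.31 with an adjusted p of 0.0724, and Nrxn2 was then called.

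Nrxn3 was the better counted of the pair, with 351 to 2232 counts per library. It was measured at 42.3, 49.7 and 58.5 CPM (lowest, median, highest) in libraries labelled TAAR5-KO and at 42.3, 47.8 and 52.9 CPM in those labelled WT. The groups covered nearly the same range. Its log2 fold change was 0.06 (SE 0.0966, 95% interval -0.13 to 0.25, adjusted p = 0.874 by the likelihood ratio test), from means of 50.1 ± 5.78 and 47.9 ± 3.70 CPM (SD, n = 6 each).

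The 3 neuroligin genes measured were Nlgn1 (ENSMUSG00000063887.14, chromosome 3 from 25480379 to 26386609, minus strand, 9 exon blocks with 13422 bases), Nlgn2 (ENSMUSG00000051790.16, chromosome 11 from 69713948 to 69728610, minus strand, 8 exon blocks with 5785 bases) and Nlgn3 (ENSMUSG00000031302.17, chromosome X from 100342774 to 100369569, plus strand, 10 exon blocks with 9271 bases). The exons of Nlgn1 hold 39.1% G or C, those of Nlgn2 60.5% and those of Nlgn3 49.5%. A matching coding stretch of 30 codons shows how far this goes in sequences that encode nearly the same peptide. Nlgn1 encoded all 30 amino acids of Nlgn2 with 68 of 90 bases in common, and Nlgn3 encoded 29 of them with 73 bases in common. A G or C at the third base of a codon, in capitals, was found in 24 codons in Nlgn2 (chr11:69717887-69717976, minus strand), 7 in Nlgn1 (chr3:25490334-25490423, minus strand) and 20 in Nlgn3 (chrX:100361918-100362007, plus strand), all on GRCm39.
Nlgn2: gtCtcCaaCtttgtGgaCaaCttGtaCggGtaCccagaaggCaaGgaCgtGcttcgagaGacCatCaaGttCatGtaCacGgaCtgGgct
Nlgn1: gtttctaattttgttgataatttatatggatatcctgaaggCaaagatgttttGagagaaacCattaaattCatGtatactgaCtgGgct
Nlgn3: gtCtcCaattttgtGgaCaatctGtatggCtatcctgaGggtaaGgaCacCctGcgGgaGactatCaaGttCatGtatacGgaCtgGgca

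Over the whole coding sequence, G or C was the third base in 43.4% of codons in Nlgn1, 73.7% in Nlgn2 and 63.1% in Nlgn3. The neuroligin of inhibitory synapses was thus written in a much more GC-rich code than that of excitatory synapses. For the neurexins the same share was 77.2% in Nrxn2 and 63.1% in Nrxn3.

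Nlgn1 was measured at 33.9, 36.6 and 46.6 CPM (lowest, median, highest) in libraries labelled TAAR5-KO and at 28.9, 32.95 and 36.1 CPM in those labelled WT. Every library labelled TAAR5-KO lay above the WT median and 3 of them lay above all 6 WT libraries. Nlgn1 thus had a log2 fold change of 0.22 (SE 0.101, 95% interval 0.02 to 0.41, adjusted p = 0.355 by the likelihood ratio test), and it was 0.16 to 0.25 when each library was left out in turn.

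Nlgn2 overlapped widely between the labels. Its level ran from 13.2 over a median of 16.6 to 18.3 CPM in the 6 libraries labelled TAAR5-KO and from 12.9 over 17.9 to 22.6 CPM in the 6 labelled WT. The WT range enclosed all libraries labelled TAAR5-KO. Between the labels Nlgn2 differed by -0.18 on the log2 scale (SE 0.119, 95% interval -0.41 to 0.06, adjusted p = 0.586 by the likelihood ratio test).

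Nlgn3 had the lowest level per exon length of the set. It was at 6.70, 7.63 and 8.93 CPM (lowest, median, highest) in libraries labelled TAAR5-KO and at 5.81, 7.33 and 9.23 CPM in those labelled WT, with the first range inside the second. For Nlgn3 the fitted log2 fold change came to 0.07 (SE 0.117, 95% interval -0.15 to 0.30, adjusted p = 0.865 by the likelihood ratio test). Of the exon bases of Nlgn3, 41.24% are shared on the same strand with the lncRNA gene Gm21986, which had 0 to 3 counts per library. How reads on shared exons were counted is not given in the sources used here, so the absolute level of Nlgn3 is uncertain.

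Of the 4 LRRTM genes, 3 lie inside an alpha-catenin gene on the opposite strand. Lrrtm1 (ENSMUSG00000060780.3, chromosome 6 from 77219672 to 77234774, plus strand, 3 exon blocks with 3033 bases) lies in Ctnna2, Lrrtm2 (ENSMUSG00000071862.4, chromosome 18 from 35342056 to 35348077, minus strand, 1 exon block with 6022 bases) in Ctnna1, and Lrrtm3 (ENSMUSG00000042846.9, chromosome 10 from 63764251 to 63926056, minus strand, 3 exon blocks with 4251 bases) in Ctnna3. Lrrtm4 (ENSMUSG00000052581.14, chromosome 6 from 79995860 to 80787124, plus strand, 4 exon blocks with 6147 bases) has no such host, but 1543 of its exon bases (25.1%) overlap the lncRNA gene Gm4409 on the opposite strand, which had 0 to 2 counts per library. Lrrtm2 shared 95 exon bases (1.58% of its exons) with Ctnna1, and Lrrtm1 and Lrrtm3 shared 0 with their hosts, so host exons could add little to their counts. The exons of these 3 genes otherwise lie in host introns. What unspliced host RNA added to their counts was not tested, and the strand setting used in counting is not given. The host genes themselves were not called, with log2 fold changes of -0.23 for Ctnna1, -0.07 for Ctnna2 and -0.26 for Ctnna3 (adjusted p of 0.405, 0.804 and 0.6 by the likelihood ratio test).

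Lrrtm4 had the largest log2 fold change of the 9 genes and also the widest spread. In the libraries labelled TAAR5-KO it was at 9.50, 10.8 and 8.36 CPM in NK1, NK2 and NK3 and at 5.46, 5.21 and 5.04 CPM in NK4, NK5 and NK6. In those labelled WT it was at 5.19 CPM in NK7, 5.44 in NK8, 7.78 in NK9, 4.94 in NK10, 4.99 in NK11 and 4.32 in NK12. Thus 3 libraries labelled TAAR5-KO stood above all others, and the remaining 3 lay within the WT range. Fitted over all 12 libraries, the log2 fold change came to 0.44 (SE 0.194, 95% interval 0.06 to 0.82, adjusted p = 0.324 by the likelihood ratio test).

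The 4 libraries with the highest level of Lrrtm4 (NK1, NK2, NK3 and NK9) were also the 4 with the largest share of ribosomal RNA, from 86.62% to 88.05%, against 64.29% to 85.64% in the other 8. With that share as a covariate in the fit, the log2 fold change of Lrrtm4 was 0.21 (adjusted p = 0.753). In the fit without the covariate it was 0.31 to 0.56 when each library was left out in turn. For Nrxn2 the covariate gave -0.19 (adjusted p = 0.478), for Nlgn1 0.17 (adjusted p = 0.647) and for Lrrtm2 0.22 (adjusted p = 0.478).

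Lrrtm2 was measured at 18.7, 20.5 and 24.6 CPM (lowest, median, highest) in libraries labelled TAAR5-KO and at 15.8, 18.3 and 21.4 CPM in those labelled WT. All 6 libraries labelled TAAR5-KO were above the WT median, and 2 were above every WT library. Lrrtm2 thus had a fold change of 0.19 on the log2 scale, with an SE of 0.0987 and an adjusted p of 0.433 by the likelihood ratio test. Its 95% interval of -0.00 to 0.38 just included 0 (unadjusted p = 0.0551 by the same test).

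For Lrrtm1 and Lrrtm3 the 95% interval of the difference included 0, as it did for Nrxn3, Nlgn2, Nlgn3 and Lrrtm2. Lrrtm1 ran from 2.32 over a median of 2.91 to 3.72 CPM in libraries labelled TAAR5-KO and from 2.84 over 3.29 to 3.61 CPM in those labelled WT, on 26 to 152 counts per library. The fitted difference for Lrrtm1 was -0.18 on the log2 scale with a 95% interval of -0.46 to 0.10 (adjusted p = 0.66). Lrrtm3 ran from 8.53 over 9.33 to 11.1 CPM and from 7.26 over 8.96 to 10.5 CPM, and its fitted difference was 0.11 (95% interval -0.09 to 0.32, adjusted p = 0.72).

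Levels were next compared between the 9 genes, as CPM per kb of exons averaged over the 12 libraries. This scale divides by the merged exon length of each gene, which can exceed the length of the transcripts present. An error in that length is the same in every library, so the test of the order that follows does not measure it. Nrxn3 led with 3.86 ± 0.376 CPM per kb (SD, n = 12), followed by Lrrtm2 with 3.29 ± 0.428, Nlgn2 with 3.00 ± 0.480, Nlgn1 with 2.65 ± 0.358 and Lrrtm3 with 2.17 ± 0.247. Nrxn2 (1.42 ± 0.207), Lrrtm1 (1.01 ± 0.144), Lrrtm4 (1.04 ± 0.345) and Nlgn3 (0.815 ± 0.114) formed the lower part, in the order of their mean log2 values. The means by label ordered some genes differently. Lrrtm2 was at 3.54 and Nlgn2 at 2.83 CPM per kb in libraries labelled TAAR5-KO, against 3.05 and 3.16 in those labelled WT. Lrrtm4 was at 1.20 and Lrrtm1 at 0.959 in the former, against 0.886 and 1.06 in the latter. Nrxn3 stood at the 92.4th percentile of all features tested by this scale and Nlgn3 at the 60.9th.

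In an exact sign-flip permutation test over the 12 libraries (two-sided, adjusted over 8 neighbouring pairs), Nrxn3 exceeded Lrrtm2 in 11 of 12 libraries (adjusted p = 0.00195), Nlgn1 exceeded Lrrtm3 in 12 of 12 (adjusted p = 0.00195) and Lrrtm3 exceeded Nrxn2 in 12 of 12 by 0.62 on the log2 scale (adjusted p = 0.00195). Nrxn2 exceeded Lrrtm1 in 11 of 12 libraries (permutation, adjusted p = 0.00195). The smallest p this test can give is 0.000488. Neighbours and the direction of each pair were taken from the means of these same 12 libraries. The p-values thus describe how far neighbours separate and are no independent test of the order. Lrrtm2 and Nlgn2 (adjusted p = 0.105), Nlgn2 and Nlgn1 (adjusted p = 0.112) and Lrrtm1 and Lrrtm4 (adjusted p = 0.954) were not separated beyond the spread over libraries by this permutation test, and their order is left unset. The first of these pairs was separated without NK7, NK8, NK10 or NK12 (adjusted permutation p of 0.069, 0.0875, 0.0641 and 0.0703), and the second without NK1, NK4 or NK9 (0.0594, 0.0984 and 0.0844). Lrrtm4 exceeded Nlgn3 in 8 of 12 libraries by a mean of 0.31 on the log2 scale (permutation, adjusted p = 0.0906), and this call was lost when NK1, NK2, NK3, NK4, NK9, NK10 or NK11 was left out (adjusted p up to 0.156). The exons that Nlgn3 shares with Gm21986 leave its level uncertain, and with it the last place of Nlgn3 in the order. Nlgn1 and Nlgn2, the neuroligins of excitatory and inhibitory synapses, were not separated per kb of exons over all 12 libraries.

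**Figure D2:**
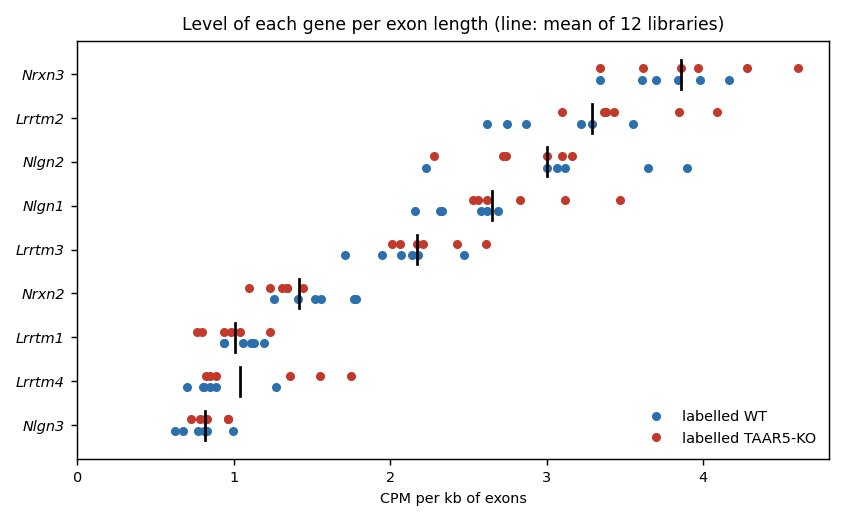
Level of each gene in CPM per kb of exons on the horizontal axis, with a point for each of the 12 libraries coloured by genotype label and a vertical line for the mean over all 12. The genes spread from Nlgn3 with a mean of 0.815 to Nrxn3 with 3.86, and the points of Lrrtm2, Nlgn2 and Nlgn1 overlap.

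Ratios of related genes within a library do not depend on how that library was scaled, and 5 of them were compared between the labels by an exact permutation test (two-sided, all 924 assignments of the libraries, smallest possible p 0.00216). At an adjusted p under 0.1, 4 of the 5 ratios differed, and 1 of these did so with the GC trend removed as well. Each of the 4 sets a gene with less G or C in its exons over one with more, and Nlgn2 enters both neuroligin ratios. Such ratios were not computed for other pairs of genes, so no background share of calls can be given. The 4 calls are therefore not read as particular to these genes. The log2 ratio of Nrxn3 to Nrxn2 per kb was 1.33 to 1.78 in libraries labelled TAAR5-KO and 1.17 to 1.55 in those labelled WT. All 6 of the former lay above the WT median, though the ranges overlapped. The difference was 0.32 (SE 0.084, exact p = 0.00433, adjusted over 5 ratios 0.0216), so that Nrxn3 was at 3.04 times the level of Nrxn2 in one group and at 2.44 times in the other.

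Among neuroligins, the log2 ratio of Nlgn1 to Nlgn2 was 0.01 ± 0.218 in libraries labelled TAAR5-KO and -0.35 ± 0.343 in those labelled WT (SD, n = 6 each), a difference of 0.36 (SE 0.17, exact p = 0.0606, adjusted 0.0758). All 6 libraries labelled TAAR5-KO lay above the WT median, but NK9, labelled WT, was at 0.27 and within their range. The call was lost when NK1, NK2, NK4, NK7, NK10, NK11 or NK12 was left out, with differences of 0.28 to 0.36 and an adjusted permutation p of up to 0.152. Nlgn3 against Nlgn2 differed by 0.26 (SE 0.096, exact p = 0.026, adjusted 0.0433), with means of -1.74 ± 0.174 and -2.0 ± 0.158 (SD, n = 6 each).

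Among LRRTM genes, the log2 ratio of Lrrtm2 to Lrrtm1 averaged 1.88 ± 0.290 in libraries labelled TAAR5-KO and 1.51 ± 0.163 in those labelled WT, with a difference of 0.37 (SE 0.14, exact p = 0.0152, adjusted 0.0379, n = 6 each). Lrrtm3 against Lrrtm4 was not called (difference -0.29, SE 0.17, exact p = 0.123). In that ratio NK1, NK2 and NK3 were at 0.57 to 0.70 and the other 3 libraries labelled TAAR5-KO at 1.24 to 1.33, within the WT range of 0.96 to 1.56. Without NK5, NK6 or NK9 it passed the threshold, with differences of -0.34, -0.36 and -0.34 (adjusted permutation p of 0.0931, 0.0758 and 0.0996).

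**Figure D3:**
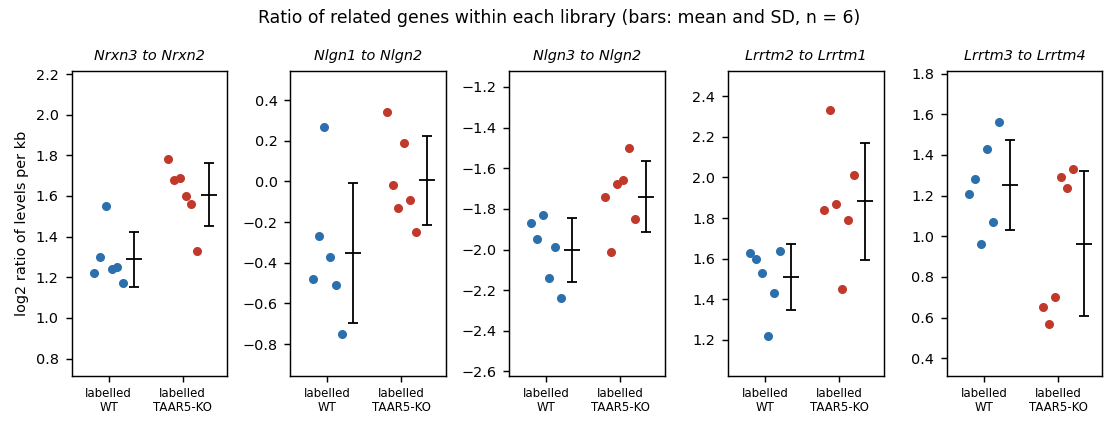
Log2 ratio of levels per kb for 5 pairs of related genes, 1 point per library, with bars for the mean and SD of the 6 libraries of each label; the panels span equal lengths of the log2 axis at different heights. The Nrxn3 to Nrxn2 ratio is shifted by 0.32 between the labels, and in each panel the 2 groups overlap.

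The direction of the fold changes in the set went with the base composition of the exons. By the likelihood ratio fit, the 6 genes with less than 50% G or C had log2 fold changes of 0.06 to 0.44 and the 3 with more than 50% had -0.18 to -0.28, and with library size as the only scaling all 9 were below 0. The same trend ran through all features tested, with a median of 0.18 in features under 40% G or C, 0.07 from 40% to 45%, -0.07 from 50% to 55% and -0.12 from 55% to 60%. It therefore was not particular to synaptic adhesion genes. Within single libraries, the median deviation of GC-rich features (at least 55%) minus that of AT-rich features (under 40%) was -0.41 to 0.00 in those labelled TAAR5-KO and -0.12 to 0.43 in those labelled WT, where NK9 was the lone negative value (means -0.14 and 0.15, exact permutation p = 0.0152, n = 6 each).

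With each library's GC trend removed, none of the 9 genes was called and all 9 had an unadjusted p over 0.05 in the likelihood ratio test. The log2 fold change of Nlgn1 was then 0.06, that of Lrrtm2 -0.01, that of Nlgn2 -0.03 and that of Nrxn2 -0.13, while Lrrtm4 kept 0.30 (SE 0.169, adjusted p = 0.642). The ratio of Nrxn3 to Nrxn2 still passed, with a difference of 0.20 (adjusted permutation p = 0.0541). Before this removal its log2 value was 1.78, 1.68 and 1.69 in NK1, NK2 and NK3, where ribosomal RNA took 86.62%, 87.14% and 88.05% of counts. It was 1.33 in NK6 with 73.76%, but 1.24 in NK10 with 85.64%. No ratio was tested with the ribosomal RNA share as a covariate, so the part of that share was not tested. The ratio of Nlgn1 to Nlgn2 differed by 0.07 (adjusted permutation p = 0.565), that of Nlgn3 to Nlgn2 by 0.18 (0.146) and that of Lrrtm2 to Lrrtm1 by 0.08 (0.617), and these 3 were no longer called.

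**Figure D4:**
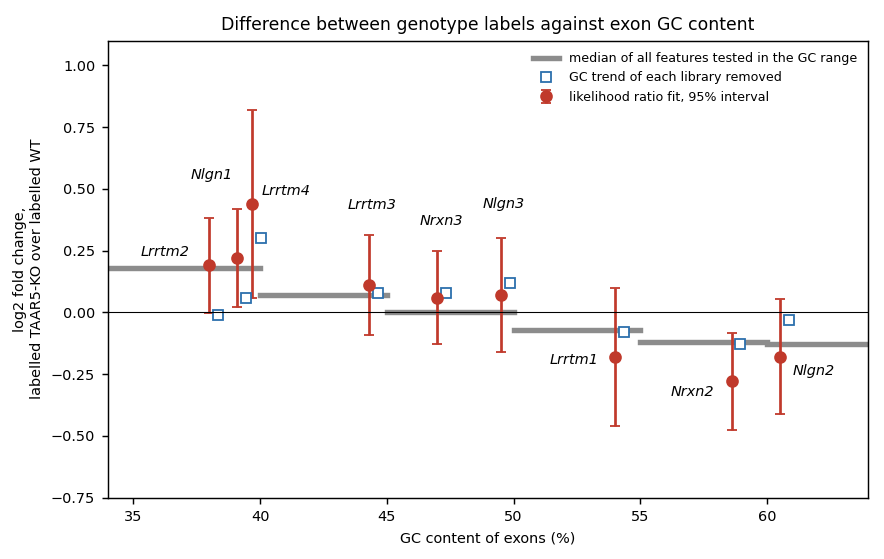
Log2 fold change (labelled TAAR5-KO over labelled WT) of the 9 genes against the GC content of their exons, as filled circles with 95% intervals, with open squares, drawn slightly to the right, for values after each library's GC trend was removed. Grey lines give the median of all features tested in each GC range, from 0.18 under 40% to -0.13 at 60% and over, and the circles slope the same way while the squares lie between -0.13 and 0.30; with library size as the only scaling all 9 values were negative.

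After the mean of each label was subtracted, some pairs of the 9 genes varied together across the 12 libraries and others did not, with Pearson's r from -0.51 (Nlgn3 and Lrrtm3) to 0.88 (Nrxn2 and Nlgn2). Nlgn1 and Lrrtm4 had an r of 0.83, Lrrtm3 and Lrrtm4 of 0.76, and Nrxn3 and Nlgn1 of 0.74. Nlgn1 and Nlgn2 had -0.06, Lrrtm1 and Lrrtm3 -0.39, Nlgn1 and Lrrtm1 -0.36, and Nrxn2 and Lrrtm3 -0.34. The libraries share differences in depth, ribosomal RNA and base composition, so these are descriptions of 12 points each. The feature most like each gene in this measure was Adgrb1, an adhesion G protein-coupled receptor, for Nrxn2 (r = 0.95), the kinase gene Taok1 for Nrxn3 (0.95), the nuclear pore gene Tpr for Nlgn1 (0.95) and the endocytic kinase gene Aak1 for Nlgn2 (0.96). For the others it was Abtb1 for Nlgn3 (0.88), Cfap61 for Lrrtm1 (0.86), Slit3, a secreted guidance factor, for Lrrtm2 (0.92), Bank1 for Lrrtm3 (0.94) and the flippase gene Atp11b for Lrrtm4 (0.94). Each was the highest of all features tested and so had to be high, and Bank1 (0.548 CPM), Abtb1 (1.19 CPM) and Cfap61 (1.20 CPM) had low levels.

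The wider adhesion machinery was described with 87 genes in 8 lists, of which 84 were tested and 2 were called, both lower in libraries labelled TAAR5-KO. Over all features 0.957% were called higher and 0.691% lower. The median log2 fold change over the 84 genes was 0.03. The called genes were Ntng1 and Sparcl1.

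Ntng1 encodes netrin-G1, a presynaptic protein anchored to the membrane by a lipid, whose partner is an LRR protein on the dendrite. It was at 2.53, 3.19 and 3.66 CPM (lowest, median, highest) in libraries labelled TAAR5-KO and at 4.03, 5.17 and 7.44 CPM in those labelled WT, on 39 to 178 counts. The groups did not overlap. Ntng1 fell by 0.76 on the log2 scale with an SE of 0.163 (adjusted p = 0.00204 by the likelihood ratio test), and its log2 fold change was -0.63 to -0.86 when each library was left out.

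Sparcl1 encodes hevin, a matrix protein secreted largely by astrocytes that is known to bridge neurexins and neuroligins. It was at 178, 193 and 211 CPM in libraries labelled TAAR5-KO and at 225, 236 and 254 CPM in those labelled WT (lowest, median, highest), again without overlap. On the log2 scale it fell by 0.30 with an SE of 0.0903 (adjusted p = 0.0738 by the likelihood ratio test). Over all alternatives the adjusted p ran from 0.000429 (DESeq2) to 0.7 (library size as the only scaling). The call was lost in 8 of the 12 settings that keep all libraries, among them the quasi-likelihood test (0.168), a covariate for the ribosomal RNA share (0.129) and the GC trend removed (-0.25, 0.354), and without any 1 of NK2, NK3, NK5, NK7, NK8, NK9, NK10, NK11 or NK12 (log2 fold changes of -0.27 to -0.31, adjusted p of up to 0.233). Astrocyte markers moved in the same direction, with 2 of 6 called lower and a summed level of 143 to 185 CPM against 197 to 219 CPM, and their part in the value of Sparcl1 was not tested.

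The lists without a called gene are given by role. The secreted neurexin ligands (cerebellins, C1q-like proteins and neurexophilins) had 0 of 11 called, a median log2 fold change of -0.15 and a range of -1.32 to 0.62, the widest of the lists. C1ql3 was the most abundant of them per kb, at 1.49 to 6.49 CPM in libraries labelled TAAR5-KO and 1.93 to 4.91 CPM in those labelled WT. LAR-type receptor phosphatases and their ligands, a parallel system of presynaptic organisers, had 0 of 19 called and a median of 0.00, with Lrrc4b as the most abundant (-0.14, adjusted p = 0.659). Latrophilins, FLRTs and teneurins had 0 of 10 called and a median of 0.08, led by Adgrl1 (-0.01, adjusted p = 0.985).

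Intracellular partners, which tie the adhesion proteins to scaffolds, had 0 of 14 called and a median of 0.04. Proteases and splicing factors that act on the family had 0 of 5 called and a median of 0.04, led by the sheddase gene Adam10 (0.03, adjusted p = 0.944). The alpha-catenin host genes had 0 of 3 called. In the 2 lists with a called gene, the other 13 surface partners and the other 7 netrin-G and SynCAM genes were not called, and Cadm2, the most abundant of the latter list per kb, had a log2 fold change of 0.11 (adjusted p = 0.759).

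**Figure D5:**
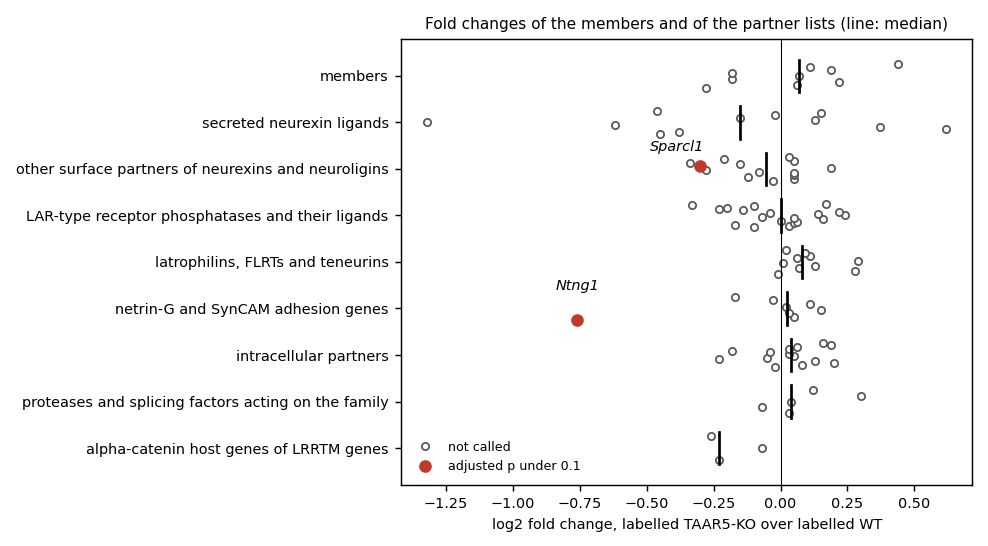
Log2 fold changes (labelled TAAR5-KO over labelled WT) of the 9 genes and of the 84 tested partner genes by list, 1 point per gene, with a vertical line for each median and filled red points for genes with an adjusted p under 0.1. The filled points are Ntng1 at -0.76 and Sparcl1 at -0.30, and the list medians lie between -0.23 and 0.08.

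Among the other marker lists, microglia had 2 of 5 called lower, at a summed 20.5 to 30.1 against 26.4 to 36.0 CPM. Pan-neuronal markers (0 of 6 called) overlapped between the labels, at 484 to 803 and 541 to 748 CPM, as did those of interneurons (0 of 5), oligodendrocyte precursors (0 of 3), mature oligodendrocytes (0 of 5) and endothelium (0 of 4). Choroid plexus markers (0 of 4 called) spread from 2.45 to 465 CPM and ependymal markers (0 of 2 tested) from 1.07 to 6.39 CPM over the libraries. The part of these cell types in the levels of the 9 genes was not tested.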

How the data were processed

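Total RNA of 12 striata was sequenced after removal of ribosomal RNA, as single-end directional libraries. According to the paper and the processing notes of the submitters, reads were trimmed with cutadapt 4.1, aligned with STAR 2.7.11b to GRCm39 and counted per gene with featureCounts 2.0.6. The authors deposited raw counts per gene of GENCODE M35, without normalization or pooling, and the length of the merged exons. The strandedness used in counting, and what was done with multi-mapping reads or reads on overlapping genes, are not given in the sources used here. Column names give the genotype and a running number (NK1 to NK12) that differs from the animal numbers of the labels, so each column was a replicate of its genotype label. The table has 12 more columns with counts of libraries, and these were left out.

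Features that reached 0.5 CPM, here of the uncorrected total count, in 3 or more libraries (13902 of 57132) were tested with TMM factors, estimateDisp, glmFit and glmLRT in edgeR 4.0.16 (R 4.3.3), the test of the paper, without covariates. The paper kept 13053 features and called fewer genes, with more of them lower than higher in the knockout. A CPM filter on TMM library sizes also kept 13053 features here, and 234 were then called, 135 higher and 99 lower. A call is a Benjamini-Hochberg adjusted p under 0.1 over all features tested. Standard errors and 95% intervals come from the same fit, and all p-values of the report that name no other test are from it. The 95% intervals thus include the dispersion between animals that the fit estimated. Total counts were 11269915 to 34824450 per library, and floors from a count of 0 cover counting error only. Ratios used counts plus 0.5 per kb, and the exact permutation tests were run in Python 3.11.15. Replicates of 1 label differed by more than sampling noise in all 30 pairs (chi-square per degree of freedom of 6.78 or more). The scripts were tested on simulated counts with known changes, drawn for each gene without a trend in GC content or ribosomal RNA. That test thus does not cover such trends.

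Alternatives were the quasi-likelihood test, DESeq2 1.42.0, other scalings and filters, an adjusted p under 0.05, ribosomal RNA features removed or their share as a covariate, a loess correction of each library for gene length or for GC content (span 0.5), a pseudocount of 2, levels without division by length, and leaving out each library. GC content came from GRCm39 and the coding sequences from GENCODE M39, which is newer than the annotation of the counts. The genes named were all 9 members, each called partner gene, the partner gene of each list with the highest level per kb, and for each member the feature with the highest within-label correlation. Among these, 1 gene is not reported here. The members, lists and tests were chosen with earlier results of these data known.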

Additional observations from a re-analysis of the deposited data

Results flagged for a closer look

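Of 32 groups of 6 libraries examined (by label, the levels of the 9 genes and of Ntng1 and Sparcl1, and the 5 ratios), 2 had a library far from the others by Dixon's criterion, and chance flags about 1 group in 20. Both concern NK9, labelled WT. Its level of Lrrtm4 was 7.78 CPM, against 4.32 to 5.44 CPM in the other 5 libraries labelled WT. Its log2 ratio of Nrxn3 to Nrxn2 was 1.55, against 1.17 to 1.30 in the other 5, and thus inside the range of the libraries labelled TAAR5-KO. NK9 had 87.35% of its counts on ribosomal RNA, the highest share among libraries labelled WT.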

How the results depend on the processing

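Of the 9 genes, 0 were called under each of the 12 other settings, and 0 to 1 when each library was left out, the 1 being Nrxn2 without NK9. The count of called features, 229, was 63 by the quasi-likelihood test, 7 with library size as the only scaling, 93 without a filter, 108 at an adjusted p under 0.05, 98 with the ribosomal RNA share as a covariate, 82 with the GC trend removed, and 85 (without NK11) to 415 (without NK4) when a library was left out, with 114, 114, 137, 102 and 136 without NK1, NK2, NK3, NK7 and NK12. The 2 partner genes called became 0 with library size alone, 1 by the quasi-likelihood test, without a filter, at an adjusted p under 0.05, with ribosomal RNA features removed, with the covariate and with the length or GC trend removed, and 1 to 5 (5 without NK4) when a library was left out. Library size as the only scaling moved the median of all features by -0.49 on the log2 scale and reversed Nrxn3 (-0.52), Nlgn1 (-0.34), Nlgn3 (-0.46), Lrrtm2 (-0.39), Lrrtm3 (-0.39) and Lrrtm4 (-0.20). Removal of the GC trend turned Lrrtm2 to -0.01 and the differences in the ratios of Nlgn1 to Nlgn2 (0.07), Nlgn3 to Nlgn2 (0.18) and Lrrtm2 to Lrrtm1 (0.08) then missed the threshold.

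When each library was left out, the ratio differences were 0.28 to 0.37 for Nrxn3 to Nrxn2, 0.28 to 0.48 for Nlgn1 to Nlgn2, 0.21 to 0.31 for Nlgn3 to Nlgn2, 0.28 to 0.46 for Lrrtm2 to Lrrtm1 and -0.36 to -0.21 for Lrrtm3 to Lrrtm4. The order of levels depends on division by gene length, as its construction implies. Without it, Lrrtm2 exceeded Nlgn2 by 0.20 and past the threshold, while the log2 differences were -1.04 for Nlgn2 over Nlgn1, -1.08 for Lrrtm3 over Nrxn2, -1.01 for Lrrtm1 over Lrrtm4 and -0.29 for Lrrtm4 over Nlgn3. With a library left out the differences were 0.10 to 0.17 for Lrrtm2 over Nlgn2, 0.12 to 0.22 for Nlgn2 over Nlgn1, -0.05 to 0.11 for Lrrtm1 over Lrrtm4 (-0.03, -0.01, -0.02, -0.03, -0.04 and -0.05 without NK4, NK5, NK7, NK10, NK11 and NK12) and 0.23 to 0.36 for Lrrtm4 over Nlgn3. Where a value above changed, the cause was not tested. No paired analysis was possible because the columns of the count table carry numbers that are not the animal numbers of the labels. Depth limits Lrrtm1 most, with 26 to 152 counts per library.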
